A study of Homo sapiens with 7 samples.

Results

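SR proteins and hnRNPs are large families of RNA-binding proteins that help decide which splice sites a cell uses. The set described here holds 37 genes of the 62238 in the count tables. Members were picked by symbol, with earlier results of these data known. The set has 11 SR protein genes (SRSF1 to SRSF11) and 2 TRA2 genes (TRA2A and TRA2B). It also has 22 hnRNP genes (with PTBP1, PCBP1, PCBP2 and SYNCRIP counted among them) and the related RBM5 and RBM39. A cell line from human megakaryoblastic leukemia, MEG-01, supplied all of the data. In the RNA-seq experiment 1 library of control MEG-01 cells was compared with 1 library from each of 2 lines in which RBM15 was knocked down, by shRBM15#1 in line 1 and by shRBM15#2 in line 2. RBM15 is a nuclear RNA-binding protein of the spen family that is found with splicing factors. The labels give lentiviral transgenes for every sample, the control included, name no control hairpin, and place every culture in exponential growth. Each hairpin is represented by a single library. In the RIP-seq experiment, RNA cross-linked to protein was immunoprecipitated with an RBM15 antibody or with normal immunoglobulin (IgG), and 1 library of each is used here.

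SR proteins carry RNA recognition motifs and a tail rich in arginine and serine, bind exonic enhancers and mostly promote the use of nearby splice sites. The hnRNPs coat nascent transcripts and often act in the opposite direction. Many of these genes regulate themselves: when the protein is abundant, its own transcript is spliced to include a "poison" exon that holds a premature stop codon, and the product is destroyed by nonsense-mediated mRNA decay (NMD). Other members do the same by splicing inside the 3′UTR, and unproductive transcripts can also be held in the nucleus as retained introns. Reads over such stretches can therefore be set against reads over the coding exons of the same gene. In bulk libraries such as these, a transcript that is made less often and a transcript that is destroyed sooner cannot be told apart.

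The borders and stop codons of 4 poison exons are shown because the results on NMD-only sequence turn on exons of this kind. They were read from the GRCh37 genome on the strand of the gene. In the acceptor and donor windows capitals mark exon bases and lower case marks intron bases, and in the stop windows capitals mark the premature stop codon of the annotated NMD transcript. The SRSF3 exon is 456 bases long (chr6:36567598-36568053, + strand) and its stop codon starts at base 32 of the exon. The TRA2B exon is 276 bases long (chr3:185649365-185649640, - strand) with the stop codon at base 79. The SRSF7 exon is 449 bases long in the form shown (chr2:38976040-38976488, - strand) with the stop codon at base 26. Annotated NMD transcripts also hold forms of 276 and 1127 bases. The SRSF6 exon is 268 bases long (chr20:42087793-42088060, + strand) with the stop codon at base 150.
SRSF3 acceptor, chr6:36567578-36567607: aaaaatgaaccccgttacagAGTCACCATC
SRSF3 stop, chr6:36567617-36567643: ctcaccaccctcTGAatctgcattagc
SRSF3 donor, chr6:36568044-36568073: CCCAAAACTAgtaagtttttcctgcttata
TRA2B acceptor, chr3:185649631-185649660: cctgttctttttctattaagGTTAATGTTG
TRA2B stop, chr3:185649548-185649574: ctcaggaataagTGAagctgaaatttg
TRA2B donor, chr3:185649345-185649374: ACTACGCTAAgtaattactagtctgtttat
SRSF7 acceptor, chr2:38976479-38976508: acctggtcaaaacctttcagGTTTCTTCGT
SRSF7 stop, chr2:38976449-38976475: agtcagtcgcctTGAttcagaatgtca
SRSF7 donor, chr2:38976020-38976049: AACTTGCAAGgtttattttaaatacacatt
SRSF6 acceptor, chr20:42087773-42087802: ttgatgtttcaatttgaaagTGACCAATGG
SRSF6 stop, chr20:42087930-42087956: gccttttgccatTAGacgcagggtgat
SRSF6 donor, chr20:42088051-42088080: ACACTGTGATgtaagtacttagtgtaaaac

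The hairpin targets are shown because both knockdown lines rest on them. Each is 20 bases long and lies in the coding sequence of RBM15 on the + strand. Among the annotated transcripts an exact match was found in RBM15 transcripts, and no member gene held one.
shRBM15#1 target, chr1:110882526-110882545: gcggaatacaagactctgaa
shRBM15#2 target, chr1:110884588-110884607: ccaatggttatgccattctt

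The RNA-seq libraries held 53230029 bin counts in the control, 41629454 in line 1 and 52458857 in line 2. Line 1 also had the largest share of reads outside the counted bins, 32.01% against 23.2% in the control and 23.5% in line 2. RBM15 itself measured 80.2 CPM in the control (counts scaled to a library of fixed size), 43.7 in line 1 and 40.7 in line 2. Its log2 fold change was -0.93 (SE 0.23) with an adjusted p of 0.0908 in edgeR's quasi-likelihood test, so it did not pass the limit of 0.01 that was used for genes. Of the markers of megakaryoblasts, GATA1, GATA2, TAL1, RUNX1, FLI1 and ITGA2B all had at least 2517 reads in each library, while PF4 and GP9 were near 0 with at most 5 reads. The 6 markers of B and T cells had between 8 and 157 reads. With 1 control library, the spread behind every p-value came from the 2 knockdown lines, and a peculiarity of the control culture cannot be told apart from an effect of the knockdown.

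Of the 37 members, 36 had enough reads to be tested, and in total gene counts none of them was called at an adjusted p under 0.01 in edgeR's quasi-likelihood test, against 0.346% of the 24887 genes tested (0.0683% higher and 0.277% lower). At an unadjusted p under 0.05, 8 members passed (6 higher and 2 lower in the knockdown), beside 18.8% of all genes (9.61% higher and 9.17% lower). DESeq2 called 0 members as well, and 4 members had an unadjusted p under 0.05 in its test, beside 3253 of all genes. The fitted log2 fold changes of the members ran from -0.95 to 0.72 with a median of 0.05, beside a median of 0.02 over all genes. In both lines 18 members were above the control and 14 below it, beside 9890 and 9842 of the 24887 genes tested. The members spanned a wide range of abundance, from 3.46 to 2264 CPM in the control with a median of 208 CPM.

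**Figure D1:**
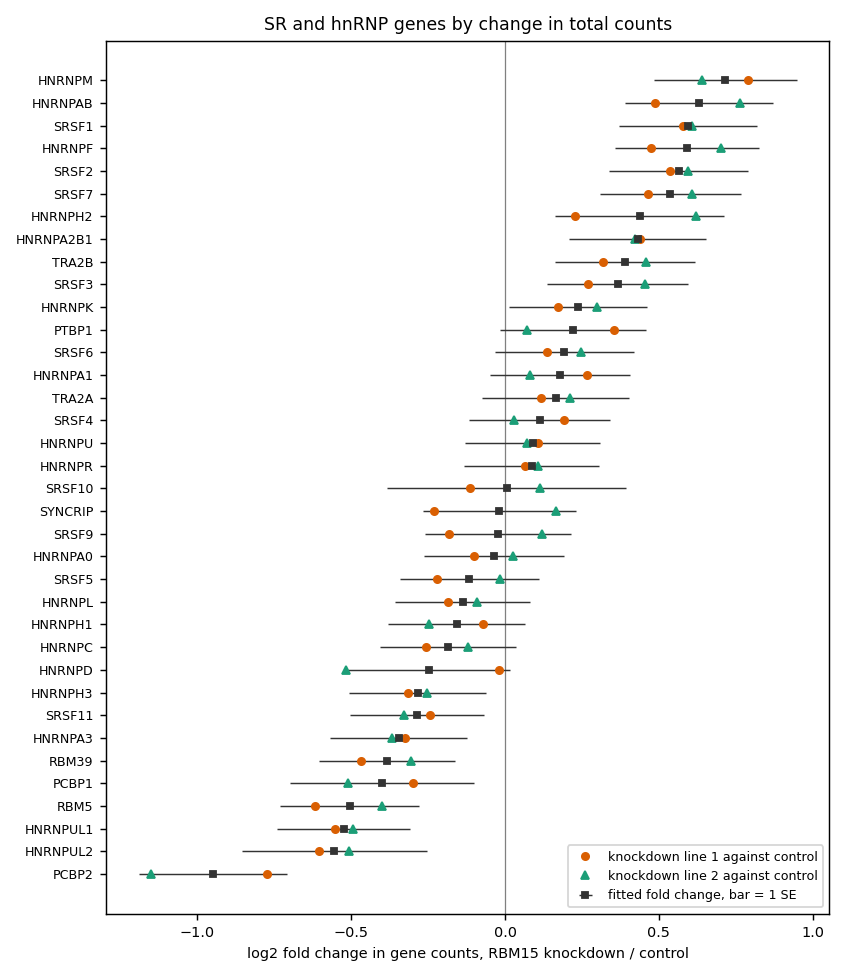
The log2 fold change in gene counts (horizontal axis) is shown for the 36 members tested, sorted by the fitted value. Circles and triangles give line 1 and line 2 against the control, and squares give the fitted value with 1 SE. Values run from -0.95 for PCBP2 to 0.72 for HNRNPM, and no member passed the adjusted limit.

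The 5 members with the largest positive values were HNRNPM, HNRNPAB, SRSF1, HNRNPF and SRSF2. HNRNPM, an hnRNP that regulates alternative exons, measured 188 CPM in the control, 325 in line 1 and 293 in line 2. Its log2 fold change was 0.72 (SE 0.23, edgeR adjusted p = 0.165). HNRNPAB, an hnRNP of the A/B type, measured 164, 230 and 278 CPM, a log2 fold change of 0.63 (SE 0.24, edgeR adjusted p = 0.216). Both knockdown lines stood above the control for each of them. SRSF1, the founding SR protein, measured 386, 576 and 588 CPM, a log2 fold change of 0.59 (SE 0.22, edgeR adjusted p = 0.214). HNRNPF, which binds runs of guanines, measured 129, 179 and 210 CPM, a log2 fold change of 0.59 (SE 0.24). SRSF2 measured 156, 226 and 235 CPM, a log2 fold change of 0.56 (SE 0.23). The SRSF2 value rests on its 3′UTR: 95.7% of its coding bin length overlaps another gene model, and coding bins held 0.506% of its control reads.

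The 5 members with the most negative values were PCBP2, HNRNPUL2, HNRNPUL1, RBM5 and PCBP1. PCBP2, a poly(C)-binding protein that regulates both splicing and mRNA stability, measured 170 CPM in the control, 99.4 in line 1 and 76.6 in line 2. Its log2 fold change of -0.95 (SE 0.24) was the largest in size of all members and had the smallest adjusted p, 0.0986 in edgeR's quasi-likelihood test. HNRNPUL1, a relative of HNRNPU, measured 410, 280 and 291 CPM, a log2 fold change of -0.52 (SE 0.22). RBM5, which regulates exon choice in apoptosis genes, measured 149, 97.1 and 113 CPM, a log2 fold change of -0.50 (SE 0.23). Both lines lay below the control for all 3 genes. HNRNPUL2, another relative of HNRNPU, had 677 reads in the control, 403 in line 1 and 502 in line 2, a log2 fold change of -0.55 (SE 0.30), and has 2 bins in these gene models. PCBP1, an intronless paralog of PCBP2, had 726, 534 and 538 reads, a log2 fold change of -0.40 (SE 0.30). Of the single PCBP1 bin, 28.3% overlaps another gene, and unstranded reads there cannot be told apart.

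Per kilobase of counted bin length, the most abundant members in the control were HNRNPC with 243 CPM per kilobase, HNRNPH1 with 239, SRSF1 with 128, HNRNPK with 115 and RBM39 with 98.8. HNRNPC and HNRNPH1 differed by little on this scale. Near-identical processed pseudogenes exist for several hnRNP genes, HNRNPA1 among them, and how the counting divided such reads is not known. SRSF8 had 0 reads in all 3 libraries, and its gene model in these tables lies on an alternate contig. SRSF10 had 171, 143 and 195 reads, and an alternate copy of the locus on another contig had 289, 228 and 295. Of the 30 SRSF10 bins of at least 25 bases, 23 occur letter for letter on that contig, so the SRSF10 values are uncertain, although it is counted in the totals over members given here. Other members had between 403 and 112029 reads in a library.

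By family, of the 10 SR protein genes tested, 7 had a positive fitted value and 3 a negative one, with a median log2 fold change of 0.15. Both TRA2 genes were positive (0.16 for TRA2A and 0.39 for TRA2B), and the 22 hnRNP genes were split into 10 positive and 12 negative with a median of -0.03. RBM39, a splicing coactivator that binds U2AF, and RBM5 both had negative values, -0.38 and -0.50. In the wider pathway, none of the 10 SR protein kinases and importer genes was called, with 8 of 10 below the control in both lines, as were 9842 of all 24887 genes. CLK1, the kinase that releases SR proteins from nuclear speckles, had 6291 reads in the control against 3914 and 5463 in the lines, a log2 fold change of -0.40 (SE 0.23). None of the 13 NMD factors tested was called (8 below the control in both lines and 4 above). Among 37 other splicing regulators tested 1 passed, ESRP1, an epithelial splicing regulator, which fell from 427 reads to 44 in line 1 and 35 in line 2, a log2 fold change of -3.38 with an edgeR adjusted p of 0.0076.

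The next comparison asked whether parts of a member gene changed relative to the whole gene. The count tables divide each gene into exon bins, and a bin's relative log2 fold change is its change minus that of the whole gene. Limits of 0.05 for the unadjusted p and 1.2 for the fold were used. Past both, 76 of the 1175 member bins tested were found (6.47%), beside 1.45% of the 234192 bins of all genes. The called member bins lay in 20 of 34 genes, and those of all genes in 1965 of 12893. Of the 76 bins, 66 fell relative to their gene and 10 rose. Lower calls made up 0.787% and higher calls 0.662% of all bins. At an adjusted p under 0.05, 1 member bin passed, in SRSF1, beside 0.0205% of all bins, so that every other bin called here passed on its unadjusted p only. Member bins were also deeper than other bins, with a median of 775 reads summed over the 3 libraries against 187, and the part of depth in the difference of shares was not tested.

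Called bins were not spread evenly over the genes. TRA2B held 12 of them, HNRNPA1 held 11, and HNRNPA2B1, SRSF1 and SRSF2 held 6 each, whereas RBM39, with 102 bins tested, and RBM5, with 60, held 0. Bins of 1 gene share its reads, and a fragment that spans several bins may be counted in each, so that neighbouring bins are not independent.

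By annotation the calls lay mainly outside coding sequence. Of 555 coding bins of the members 9 were called (1.62%), beside 0.605% of coding bins of all genes (0.285% lower and 0.321% higher). Of the 9, 8 fell. Of 53 NMD-only bins, which overlap an exon of an NMD transcript and no exon of a protein-coding transcript, 11 were called, 10 of them lower, beside 5.15% of all such bins (3.78% lower and 1.38% higher). Of these, 33 bins touch an exon of an NMD transcript no part of which is exon in a protein-coding transcript. They include pieces of the same exon, and they can also lie in retained-intron transcripts. Of the 33 bins 8 were called, all lower, beside 8.09% of all bins of this kind (6.12% lower and 1.98% higher). NMD-only bins had a median relative log2 fold change of -0.32 in the members, where 42 of 53 were below 0, and of -0.07 over the 3706 such bins of all genes, where 56.5% were below 0. Of 165 retained-intron-only bins 15 were called, all of them lower, beside 3.09% of all such bins (1.82% lower and 1.27% higher). Their median was -0.14 in the members, with 72.7% below 0, and -0.03 over all genes. Of 166 bins in the 3′UTR 21 were called, 17 of them lower, beside 2.14% of all 3′UTR bins (1.61% lower and 0.533% higher). Of 172 bins in the 5′UTR 9 were called, 5 of them lower, beside 3.19% (1.26% lower and 1.93% higher).

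**Figure D2:**
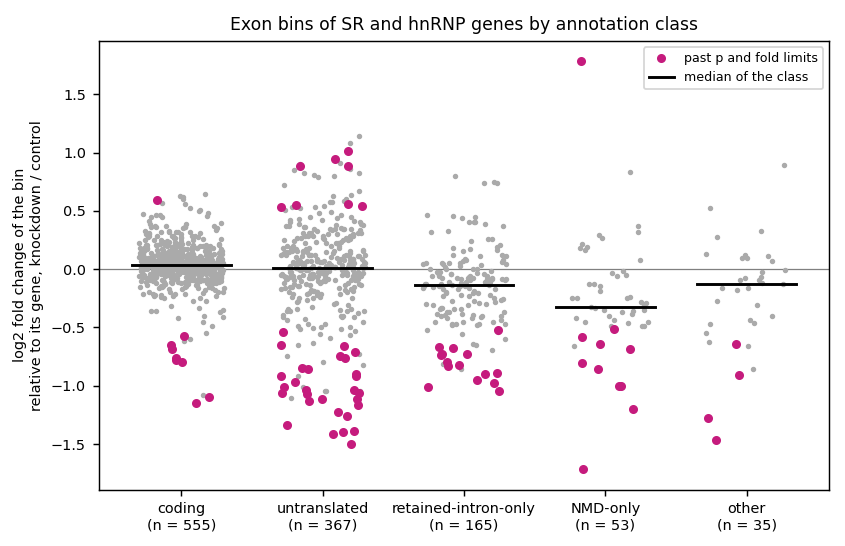
Each point is 1 of 1175 exon bins of the members, with its log2 fold change relative to its gene (vertical axis) by annotation class (horizontal axis). Black lines are medians and coloured points passed the p and fold limits. The NMD-only class sits lowest with a median of -0.32, while coding bins centre at 0.04.

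The NMD-only bins were also counted by family. All 27 NMD-only bins of the SR and TRA2 genes, from 9 genes, had a relative log2 fold change below 0, with a median of -0.39, and 25 were below 0 in both lines, as were 41.7% of the NMD-only bins of all genes. Of the 26 NMD-only bins of the hnRNP genes, RBM5 and RBM39, 15 were below 0, with a median of -0.13. More of these bins came from RBM39 than from the hnRNP genes, and those of RBM39 and RBM5 lay on both sides of 0. Among the hnRNP genes, every PCBP2 bin was above 0. The bins of HNRNPA2B1, HNRNPH1, HNRNPL, HNRNPR, HNRNPUL1 and PTBP1 were below 0. The difference between the families was not tested, since bins of a gene are not replicates.

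The SRSF3 poison exon, whose splice sites and stop codon are printed above, gave the smallest p among the NMD-only bins of the members. It held 681 reads in the control, 360 in line 1 and 508 in line 2, which is 4.32%, 2.09% and 2.23% of all SRSF3 bin counts. The relative log2 fold change was -0.998 (SE 0.14), past the limits, with an adjusted p of 0.183 in edgeR's exon usage test. Per base, reads over the exon reached 10.2% of the density over SRSF3 coding bins in the control and 4.81% ± 0.23 (SD, n = 2) in the knockdown. The 605 bases of intron directly downstream fell as well, from 638 reads to 373 and 548, a relative log2 fold change of -0.82 (SE 0.14). Density over that intron was 7.17% of coding density in the control, 3.63% in line 1 and 4.04% in line 2. How much of the density over the exon came from retained intron was not tested. SRSF3 as a whole measured 319, 384 and 437 CPM, above the control in both lines, whereas the exon stood below it in both.

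The TRA2B poison exon is divided into 3 bins, which all fell. In the control they held 259, 381 and 231 reads from the 3′ to the 5′ end of the exon, against 151, 240 and 162 in line 1 and 182, 301 and 208 in line 2. Their relative log2 fold changes were -0.999, -0.86 and -0.69. Density over the whole exon was 34.2% of the TRA2B coding density in the control, 17.0% in line 1 and 16.4% in line 2, and the 2 lines lay closer to each other than to the control. Introns of the gene fell as well. The other 9 called bins of TRA2B were retained-intron-only bins, and all 9 fell. The smallest p among them was that of bin 036, 1732 bases of intron (chr3:185652294-185654025), which held 725 reads in the control against 439 and 506 in the lines, a relative log2 fold change of -0.98 (SE 0.11, edgeR adjusted p = 0.219). Over the 14 retained-intron-only bins of TRA2B, density was 4.99% of coding density in the control, 2.85% in line 1 and 2.68% in line 2. TRA2B total counts were 352, 438 and 483 CPM.

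Besides SRSF1, described further on, SRSF7 and SRSF5 each had 1 NMD-only bin past the limits, and both fell. The SRSF7 exon measured 13.5% of coding density in the control, 9.39% in line 1 and 9.71% in line 2, and its bin 020 passed the limits with a relative log2 fold change of -0.81 (SE 0.20, 106 reads in the control, 71 and 103 in the lines). The bin with most NMD-only reads in SRSF7, bin 019, lies beside the 449-base form of the exon and inside the 1127-base form. This bin held 333, 289 and 411 reads and did not pass (-0.45, SE 0.16). The SRSF6 exon made up 6.47% of SRSF6 counts in the control, 5.23% in line 1 and 4.15% in line 2, from 290, 233 and 233 reads. It did not pass (relative log2 fold change -0.47, SE 0.15). In SRSF5, 5 adjoining NMD-only bins had relative values from -0.58 to -0.25, of which bin 036 passed (655 reads in the control, 334 and 464 in the lines). The SRSF5 NMD-only bin with most reads, bin 038, held 998, 586 and 785 reads and did not pass (-0.40, SE 0.14). The 3 stretches of such exons in SRSF11, a splicing factor related to the SR family, measured 67.4%, 46.7% and 44.8% of coding density in the control and lay between 31.5% and 50.7% in the lines, each below its own control value. None of the 3 passed the limits, and the best covered, bin 022, had a relative log2 fold change of -0.28 (SE 0.19).

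In SRSF4 and SRSF9 no bin passed. The SRSF4 NMD-only bin with most reads, bin 019, held 26, 27 and 27 reads (relative log2 fold change -0.03, SE 0.46). The SRSF9 NMD-only bin 008 held 216, 160 and 219 reads (-0.14, SE 0.20). In SRSF1 the NMD-only bin 019 is a 37-base extension of the first coding exon with 28, 18 and 18 reads. It passed the limits with a relative log2 fold change of -1.20 (SE 0.23), at a depth where few reads decide the value.

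Adjoining bins that touch exons which NMD transcripts have and protein-coding transcripts lack were joined into 28 stretches with at least 30 reads. Density relative to coding bins lay below the control in both lines in 23 cases, above it in both lines in 2, and on both sides in 3. The median ratio of knockdown to control density was 0.736, with a range from 0.303 to 1.91. The lowest ratio was that of HNRNPR bin 001. Neither it nor the 2705-base HNRNPA2B1 bin 024 lies wholly inside an exon of an NMD transcript. Of the 15 stretches in SR and TRA2 genes 12 were lower in both lines, and the stretch of SRSF10, with 9, 7 and 15 reads, was 1 of the 3 that were not. The share over all genes was not computed. Among hnRNP genes, the HNRNPH1 exon (bin 084, 134 bases) fell from 683 reads to 383 and 464, a relative log2 fold change of -0.51 (SE 0.25), and the 70-base HNRNPL exon measured 30.7% of coding density in the control, 22.3% in line 1 and 15.2% in line 2. The PTBP1 stretch measured 4.85%, 3.47% and 4.42%. RBM39 had 7 stretches, of which 6 were lower in both lines, and none of its bins was called. PCBP2 went the other way. Its stretch, bin 014, had the highest ratio, 1.91, from 14 reads in the control, 17 in line 1 and 8 in line 2. Its NMD-only bin 013, which is in none of the 28 stretches, rose from 20 reads to 30 and 41. The relative log2 fold change of bin 013 was 1.78 (SE 0.65). PCBP2 as a whole had 8407 reads in the control, 4450 in line 1 and 3997 in line 2.

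**Figure D3:**
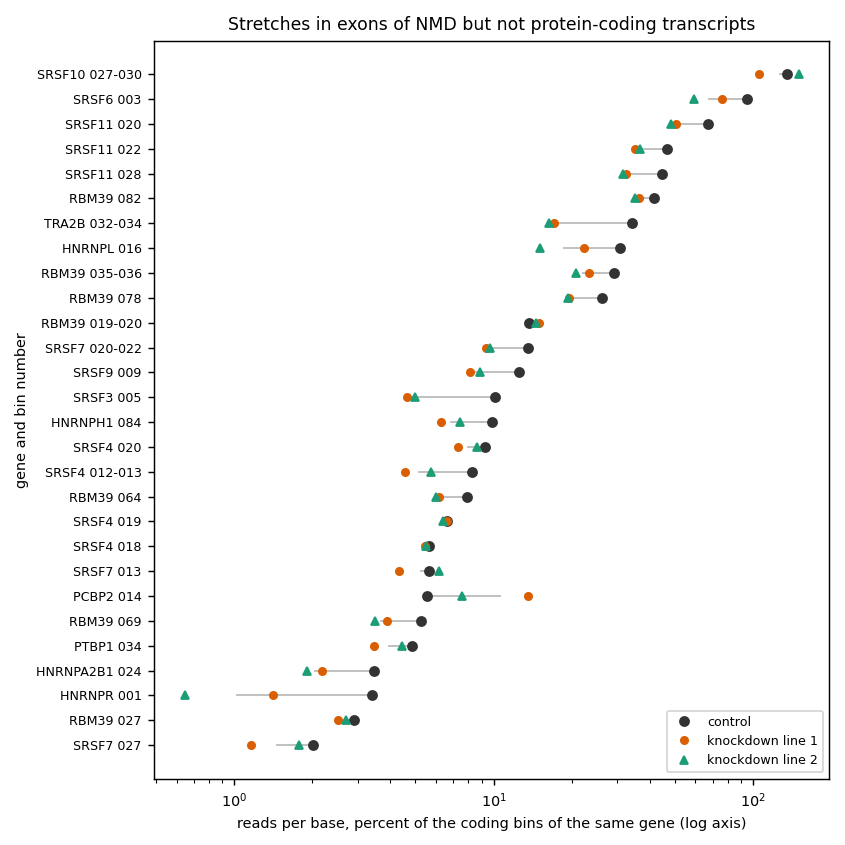
For 28 stretches that touch exons of NMD transcripts and no exon of protein-coding transcripts, reads per base are plotted as a percentage of the coding bins of the same gene (horizontal log axis), with the control in black, line 1 in orange, line 2 in green and a grey line from the control to the mean of the lines. Both lines lie to the left of the control in 23 of 28 stretches, among them TRA2B 032-034 at 34.2% in the control, 17.0% in line 1 and 16.4% in line 2.

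Reads over introns that are annotated only in retained-intron transcripts were summed per gene in the same way. Of 27 members with at least 30 such reads, density relative to coding bins was lower than in the control in both lines in 18, higher in both in 3 and mixed in 6, with a median ratio of 0.844. The same summed density was not computed over all genes, but 38.3% of their single bins of this class were below 0 in both lines, against 61.8% of those of the members. SRSF3, TRA2B and TRA2A had the lowest ratios, 0.534, 0.554 and 0.572. In TRA2A, the paralog of TRA2B, 199 intron reads in the control became 118 and 156, and 5 of its 30 bins were called, all of them lower. Among the 5, bins 024 and 025 are of the retained-intron-only class. Bins 026 and 028 are untranslated bins of protein-coding transcripts, and bin 029 is of none of these classes. HNRNPL, which binds CA repeats and regulates its own NMD transcript, had 3 called intronic bins, such as bin 015 with 407 reads in the control against 200 and 235 in the lines (-0.73, SE 0.20). Another of the 3, bin 019, is not of the retained-intron-only class. PCBP2 was again an exception, with a ratio of 1.45.

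SRSF1 held the member bin with the smallest p. Bin 013 (chr17:56082962-56083161) is a 200-base stretch that 1 protein-coding and 1 NMD transcript of SRSF1 keep as exon, and that 3 protein-coding and 2 NMD transcripts splice out. It held 813 reads in the control, 494 in line 1 and 592 in line 2, which is 4.26%, 1.92% and 1.93% of SRSF1 counts. Its relative log2 fold change was -1.15 (SE 0.11) with an edgeR adjusted p of 0.0341. The coding bins on either side had 1718 reads in the control against 2222 and 2606, and 1502 against 1880 and 2209, and neither passed the limits.

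The SRSF1 3′UTR shifted in the other direction. Adjoining bins 006 to 008 (chr17:56081363-56082209) rose, and for the longest of them reads went from 1595 to 3131 and 3775, or from 8.36% to 12.1% and 12.3% of SRSF1 counts. Its relative log2 fold change was 0.55 (SE 0.12). No protein-coding transcript of SRSF1 splices this stretch out, and 2 NMD transcripts do. Bins 002 to 005, further downstream, did not pass, with relative values between -0.05 and -0.01. The last bin, 001, fell from 178 reads to 99 and 121 (-1.26, SE 0.13, edgeR adjusted p = 0.0701).

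In SRSF2, bins inside the 3′UTR moved in both directions. Bins 012 to 015 and 017, between positions 74731241 and 74732235 of chromosome 17, fell relative to the gene. The best covered, bin 012, held 1107 reads in the control, 861 in line 1 and 1030 in line 2, a share of 14.4%, 8.52% and 8.40%, with a relative log2 fold change of -0.76 (SE 0.13). Further downstream bin 009 rose from 1176 reads to 2226 and 2705, a share of 15.3%, 22.0% and 22.1% (0.53, SE 0.14). Of the protein-coding transcripts of SRSF2, 4 keep bin 009 as exon and 0 splice it out, while 1 keeps bin 012 and 3 splice it out. The 2 NMD transcripts splice out both bins.

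**Figure D4:**
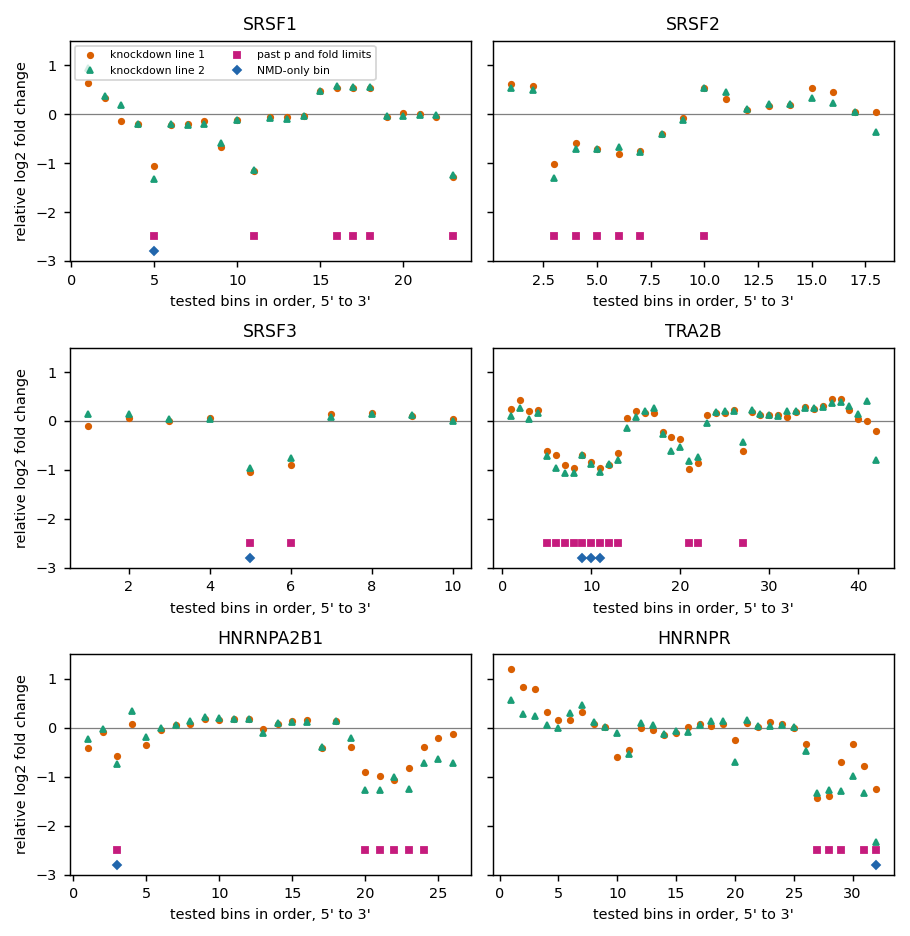
Tested exon bins of 6 members are plotted in order from the 5′ to the 3′ end (horizontal axis) with the relative log2 fold change in line 1 (circles) and line 2 (triangles). Squares mark bins past the p and fold limits and diamonds mark NMD-only bins. The TRA2B block around its poison exon lies between -0.67 and -1.01 in the fitted values, and the last bins of HNRNPA2B1 and HNRNPR lie below most of the rest of each gene.

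In HNRNPA2B1, HNRNPR, HNRNPA1 and HNRNPU bins at the 3′ end fell. These genes were grouped after their values had been seen. HNRNPA2B1, an abundant hnRNP that packages pre-mRNA, had 5 called bins in its distal 3′UTR (003 to 007, chr7:26229924-26231463), of which bin 006 held 548 reads in the control, 337 in line 1 and 319 in line 2. Its relative log2 fold change was -1.13 (SE 0.23, edgeR adjusted p = 0.0830). Bin 007 held 313, 205 and 183 reads (-1.07, SE 0.24), bin 004 held 518, 359 and 308 (-1.01, SE 0.23), and bin 005 held 296, 174 and 209 (-1.03, SE 0.24). In these stretches 4 or 5 protein-coding transcripts keep the sequence and 2 or 3 splice it out. Bins 003, 005, 006 and 007 are also kept as exon by 28, 26, 18 and 19 NMD transcripts. They are spliced out of 5, 2, 9 and 16. Bin 004 is kept by 0 NMD transcripts and spliced out of 34. In HNRNPR, 4 bins at the distal 3′UTR fell, the longest (bin 004, 3150 bases) from 379 reads to 220 and 176 (-0.97, SE 0.22). Of the 4, bins 005 and 006 adjoin and are 1 and 2 bases long. They held 28 and 29 reads in the control, and each held 10 in line 1 and 13 in line 2. The HNRNPR NMD-only bin 001 beyond them held 58, 23 and 13 reads (-1.72, SE 0.37), and it overlaps an NMD exon only in part. In HNRNPA1, 8 adjoining bins at the 3′ end (037 to 044) fell by 0.76 to 1.11 on the log2 scale, of which bin 039 held 238 reads in the control against 122 and 130 in the lines (-1.07, SE 0.26). Of the protein-coding transcripts 2 keep bin 039 and 3 splice it out. At the other end of HNRNPA1, bins 001 to 003 rose, bin 001 from 25 reads to 62 and 49 (1.01, SE 0.41). HNRNPU bin 001, 2222 bases of 3′UTR, fell from 842 reads to 484 and 646 (-0.65, SE 0.17).

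A few coding bins changed as well. In HNRNPUL1 2 adjoining coding bins (012 and 013) fell, bin 013 from 324 reads to 118 and 137 (-0.79, SE 0.16), and 3 protein-coding transcripts keep bin 013 while 6 splice it out. In HNRNPC, which binds uridine tracts, the 39-base bin 036 was the 1 coding bin of the members that rose, from 724 reads to 804 and 1084 (0.59, SE 0.16), and it is kept by 8 protein-coding transcripts and spliced out of 15.

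RBM15 RIP-seq sites were listed for 20 of the 37 members, 13 hnRNP genes, 4 SR genes, TRA2B, RBM5 and RBM39, with 23 sites in all. Over all tested genes with a symbol, 3.76% had a listed site. Abundance moved with this share. Of the genes at or above the median member level of 208 CPM in the control, 26.2% had a site, against 13 of 18 members, and 7 of the 18 members below that level had one. Members with a site had a median of 335 CPM in the control and members without one 121 CPM. The file lists only sites that passed the authors' test, so that a gene without a listed site is not shown to lack binding, and the ratios below are those of sites already chosen for being high.

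Of the 23 member sites 20 lay in the 3′UTR, or 87.0%, against 29.8% of all 1515 sites, of which 49.6% were intronic. SRSF11 had 1 site in coding sequence and 2 in the 3′UTR, SRSF3 had 2 in the 3′UTR, and the 2 intronic sites lay in PCBP2 and HNRNPUL1. The strongest member site by reads, the fourth of all sites, was in the HNRNPA2B1 3′UTR (chr7:26231502-26231882, - strand) where the anti-RBM15 library had 10140 reads and the IgG library 333. The SRSF11 sites held 4541, 3142 and 1232 reads against 377, 273 and 79 with IgG. Their ratios were 12.05, 11.5 and 15.6, of which the first 2 were the lowest of the member sites. HNRNPK, a poly(C)-binding hnRNP, had the highest ratio, 51.7 (95% exact interval 37.5 to 73.2, counting error only), from 1963 reads against 38.

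HNRNPH1 held 3535 reads against 216. Sites of other hnRNP genes held 1299 reads against 49 in HNRNPU, 1283 against 46 in HNRNPM, 905 against 41 in HNRNPD and 875 against 50 in HNRNPC. The remaining sites of this family held 791 against 52 in HNRNPL, 614 against 20 in HNRNPA3, 486 against 18 in PCBP1 and 404 against 23 in HNRNPH3. RBM5 and RBM39 held 779 against 49 and 510 against 26. All of these lay in the 3′UTR.

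The SR and TRA2 genes other than SRSF11 had sites of similar size. SRSF1 held 1065 reads against 23 (chr17:56082324-56082631), TRA2B held 1068 against 52 (chr3:185635085-185635454), SRSF7 held 380 against 21, and the SRSF3 sites held 745 against 19 and 376 against 27. The intronic sites had the fewest reads, with 220 reads against 6 in HNRNPUL1 and 163 against 4 in PCBP2 (chr12:53868627-53868976). The median ratio of anti-RBM15 to IgG reads was 20.5 over the member sites, 31.3 over all sites and 23.5 over all 3′UTR sites. Since the depth of the libraries is unknown, these ratios depend on how deeply each was sequenced. Divided by the sums over all sites in the file, the member median was 0.722 and the median of all sites 1.10.

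**Figure D5:**
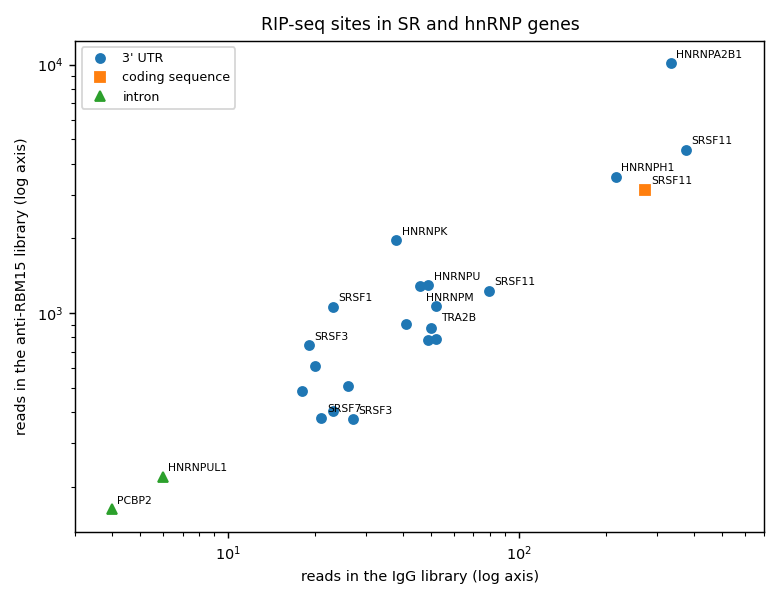
The 23 RIP-seq sites of member genes are plotted by reads in the IgG library (horizontal log axis) and in the anti-RBM15 library (vertical log axis), with the marker giving the annotation of the site. HNRNPA2B1 stands highest with 10140 reads against 333, and the 2 intronic sites, in HNRNPUL1 and PCBP2, stand lowest.

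The member 3′UTR sites were rich in thymine (uridine in the RNA). Their median share of T on the strand of the gene was 38.4%, with a range from 28.9% to 42.9%, against a median of 32.9% over 419 3′UTR sites of other genes. A run of TTTTT, searched on the strand of the gene, occurred in 18 of the 20 member sites and in 73.3% of the others. The letters GGACT, 1 of the forms of the m6A consensus, occurred in 1 member site, in SRSF7, and in 23.2% of the others. The member sites were somewhat shorter, with a median width of 293 bases against 349, and a match of letters is a description of the sequence only.

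The bins at the sites themselves were compared next. Of 48 tested bins that overlap a member site 0 passed the p and fold limits in edgeR, and 0 had an unadjusted p under 0.05. Of the bins of all genes 1.45% passed, so that 0 of 48 does not set these bins apart. Their median relative log2 fold change was 0.04, with 16 of 48 below 0, beside 48.6% of all bins. Coverage of the sites was uneven: the tested bins covered 17 of 308 bases in SRSF1 and 16 of 493 in HNRNPUL1. Some bins in TRA2B and HNRNPH3 were 1 base long. In the HNRNPA2B1 3′UTR, bin 009, which covers the whole site, held 3434 reads in the control against 4654 and 5367 in the lines (0.14, SE 0.23), while the called bin 007 begins 38 bases downstream of the site. In SRSF1 the bins that rose lie 114 bases and more downstream of the site and bin 013 lies 330 bases upstream. In HNRNPU the bin that fell lies 784 bases downstream. The SRSF3 and TRA2B poison exons lie in introns away from the listed sites, which are in the 3′UTR of both genes. Members with a site had a median log2 fold change in gene counts of -0.17 and members without one of 0.14, and none of either group was called.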

How the data were processed

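RNA-seq was from 3 MEG-01 libraries (1 control, 1 per RBM15 hairpin) and RIP-seq from 4, of which 1 IgG and 1 anti-RBM15 library were used; in the others the antibody label goes against the side they take in the authors' comparison. RNA-seq reads were paired-end and unstranded, RIP-seq reads stranded. The authors used STAR with GRCh37 and deposited, for each exon bin of Ensembl GRCh37.70, raw counts. The submitters' processing notes name HTSeq 0.6.0 among the tools, without its role, and no other source names the counting program. Lines that name no gene (23.2%, 32.0% and 23.5% of reads) were left out. The authors' RIP-seq list holds raw counts, with their fold changes and p-values, for 1515 significant peaks. Their table of exon usage lists fold changes and p-values by bin, and 809 wrapped lines of it were left out. Of both tables only counts, annotation and bin coordinates were used. The sums over peaks, 28387 for IgG and 807871 for anti-RBM15, are not library depths. The depth limits low bins, and intervals cover counting error only.

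Bin counts were summed per gene and tested with edgeR 4.0.16 in R 4.3.3 (TMM, quasi-likelihood) over genes with at least 30 reads, with Benjamini-Hochberg adjustment over all genes and a limit of 0.01. CPM uses TMM library sizes. Bins with at least 30 reads were tested with diffSpliceDGE, at the study's limits (unadjusted p under 0.05, fold over 1.2) or an adjusted p under 0.05. Nothing says that the lines came from separate cultures beyond their hairpins. Bins were classed by GENCODE v44 lifted to GRCh37, which also gave symbols. Sequences were read with samtools 1.23.1. Scripts were tested on simulated data. DESeq2 1.42.0, size factors, other count minimums and single lines were alternatives. Per-library values are given for the 5 members with the largest value in each direction in both lines, members with sites, bins with an adjusted p under 0.05, the 10 bins with the smallest p, and the NMD-only bin with most reads of each SR and TRA2 gene; others were picked after their values were seen. The members and lists were chosen with earlier results of these data known. The result for 1 marker gene is not reported here.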

Additional observations from a re-analysis of the deposited data

Results flagged for a closer look

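The RIP-seq library that is labelled normal immunoglobulin but stands on the anti-RBM15 side of the authors' comparison entered no comparison above. Summed over the 23 member sites it held 27561 reads, against 1842 in the IgG library that was used and 36516 in the anti-RBM15 library. The library labelled as anti-RBM15 but placed on the IgG side held 1768. At 23 of 23 sites the library labelled IgG but placed on the anti-RBM15 side exceeded the IgG library that was used. The authors' test chose the listed sites with it on the anti-RBM15 side, so that this excess was largely fixed in advance. Over all listed sites it held 610915 reads, against 28387 in the IgG library that was used. The cause was not tested.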

How the results depend on the processing

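No member gene was called with size factors, without a count filter (3 at an unadjusted p under 0.05, beside 7297 of all genes) or with DESeq2 (4, beside 3253), while all genes called numbered 86 in the reported test, 191 with size factors, 801 without a filter and 525 with DESeq2. Without a filter the all-gene median of log2 fold change moved from 0.02 to 0.44 and that of the members to -0.08. Member bins called numbered 48 at a minimum of 300 reads (5.94%, beside 0.880% of all bins) and 145 in a DEXSeq-type model, which was run on member bins alone and has no share over all bins. The median of NMD-only member bins was -0.28 at a minimum of 1 read, -0.41 at 300 and -0.37 for bins of exons that no protein-coding transcript overlaps, and -0.31 to -0.30 with either knockdown line left out; in bins wholly inside an NMD exon, chosen after seeing the data, it was -0.33. The RIP-seq ratio had a median of 0.722 after scaling by site sums. Of 155 values for named genes and bins under alternatives, 154 kept their direction; SRSF4 bin 019 was -0.055 without knockdown replicate 1 and turned to 0.0041 without knockdown replicate 2. In the DEXSeq-type model SRSF5 bin 038 and SRSF7 bin 019 passed the limits. The cause was not tested. No paired analysis was possible with a single control library, and the replicate numbers do not pair it with a knockdown line. With 1 library a group, leaving out a line leaves no test.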
